A study of Mus musculus with 6 samples.

Results

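The regulators of G protein signalling (RGS) examined here are Rgs2, Rgs4 and Rgs16 of the R4 subfamily, Rgs7, Rgs9 and Rgs11 of the R7 subfamily, and Rgs17 of the RZ subfamily. They were chosen by gene symbol, and all 7 were found among the 54532 genes of the deposited table, which holds 21 numbered Rgs genes. The libraries came from mouse pancreatic islets labelled as beta cells, the insulin-secreting cells of the islet. The 3 control libraries, numbered 1, 3 and 4, are labelled wild type, and the 3 others, numbered 3, 4 and 5, carry the label Bcas2 Cko, written here as Bcas2 cKO for conditional knockout. The design text speaks of a knockdown instead. The labels name Bcas2 cKO samples 1, 3 and 4, so the library numbered 5 belongs to the group by its column name but to no labelled sample. The BCAS2 protein belongs to the Prp19 complex of the spliceosome, and the series' title links it to alternative splicing and to the making and release of insulin. The sources used here do not give the Cre driver, the deleted exons, or the mice's age and sex. The labels do not tie each library to an animal of its own, so p-values measure only how these libraries vary, in part perhaps for technical reasons.

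A heterotrimeric G protein signals while its alpha subunit holds GTP, and RGS proteins speed the hydrolysis of that GTP and so shorten the signal. In beta cells, receptors coupled to Gs and Gq, such as those for incretins, acetylcholine and fatty acids, promote insulin secretion, whereas receptors coupled to Gi and Go, such as those for somatostatin and adrenaline, restrain it. R4 proteins are small and consist of little more than the RGS domain, and many are regulated through their transcription. R7 proteins act on Gi and Go and require the beta subunit GNB5 for their stability, with R7BP (Rgs7bp) and the orphan receptors GPR158 and GPR179 as membrane anchors.

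The deposited values are FPKM, which scale reads to a gene's length and to the depth of the library. Between 15170439 and 15594871 reads on genes were recovered from them in the control libraries, and between 16351800 and 16904326 in the others. Bcas2 was 10.3 to 15.0 FPKM in control, against 8.40 to 9.14 FPKM in Bcas2 cKO. The groups did not overlap, but Bcas2 did not pass the test (limma adjusted p 0.083), and its value is a total over the gene that does not single out the deleted exons. Of 10 beta cell markers all were detected, and together they took 20.5 to 28.8% of reads in control, against 14.6 to 16.0% in Bcas2 cKO. Alpha, delta and PP cell markers (11 genes) took 3.68 to 3.80% and 4.58 to 4.97%, with Irx1 and Irx2 risen. Acinar markers (18 genes) took 0.522 to 1.29% and 1.70 to 4.92%, and macrophage and lymphocyte markers (12 genes) 0.0128 to 0.0149% and 0.0179 to 0.0228%. Endothelial markers (10 genes) took 0.0517 to 0.0635% and 0.0558 to 0.0640%, and stellate cell, pericyte and fibroblast markers (12 genes) 0.0106 to 0.0158% and 0.0169 to 0.0309%. Ductal markers (8 genes) took 0.0257 to 0.0359% and 0.0272 to 0.0351%, and Schwann cell and neuron markers (7 genes) 0.00665 to 0.00925% and 0.00549 to 0.00761%. No list had a marker at 0 in every library. In such mixed preparations, fewer cells of a type and less RNA per cell cannot be told apart, and what cell makeup contributes to the differences below was not tested.

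Of the 7 RGS genes, Rgs4 rose and Rgs2 fell in Bcas2 cKO, and the other 5 did not pass the test. Rgs4 reached 2.42 times its control level and Rgs2 fell to 0.532 times its control level, so that Rgs4 went from the fourth to the first place among the 7 by FPKM. The test was limma on log2(FPKM + 1), fitted over the 13723 genes whose mean reached 1 FPKM, and rose and fell are used for genes with a Benjamini-Hochberg adjusted p under 0.05. In that fit 6.97% of all genes rose and 7.55% fell, 14.5% in either direction, so that a count of 2 of 7 is not read as a property of the family. Rises made up 48.0% of all calls, and 32.7% when the libraries were rescaled without the hormone genes, which changed the call of neither gene. The groups did not overlap for Rgs2, Rgs4 and Rgs11, 3 of 7, against 38.0% of all genes tested. The median log2 fold change was -0.10 over the 7 genes and -0.03 over all genes tested.

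The promoters of the 3 R4 genes are shown to set the sequences of the pair that changed beside that of the R4 gene that was not called. The 250 bases before the RefSeq start of each are given 5′ to 3′ on the gene's strand (GRCm38.p6), for Rgs4 from chr1:169747643-169747892 (minus strand), for Rgs2 from chr1:144004150-144004399 (minus strand) and for Rgs16 from chr1:153740103-153740352 (plus strand). Capitals mark matches, on either strand, to any of 8 motifs searched: the cAMP response element CRE (TGACGTCA), its half-site (TGACG), the AP-1 site (TGANTCA), the NR4A site NBRE (AAAGGTCA), the EGR site (GCGNGGGCG), the CCAAT box (CCAAT), the TATA box (TATAAA) and the CArG box.
Rgs4: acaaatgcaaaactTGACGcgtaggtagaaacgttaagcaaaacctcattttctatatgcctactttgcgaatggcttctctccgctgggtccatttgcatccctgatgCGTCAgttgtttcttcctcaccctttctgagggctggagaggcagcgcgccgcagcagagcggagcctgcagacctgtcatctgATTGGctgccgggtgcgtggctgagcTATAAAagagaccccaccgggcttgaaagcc
Rgs2: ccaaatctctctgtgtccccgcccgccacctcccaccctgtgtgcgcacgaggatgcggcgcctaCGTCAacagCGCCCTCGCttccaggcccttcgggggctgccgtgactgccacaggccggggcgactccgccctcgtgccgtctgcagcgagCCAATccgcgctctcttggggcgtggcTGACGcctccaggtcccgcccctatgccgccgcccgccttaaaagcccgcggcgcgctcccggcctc
Rgs16: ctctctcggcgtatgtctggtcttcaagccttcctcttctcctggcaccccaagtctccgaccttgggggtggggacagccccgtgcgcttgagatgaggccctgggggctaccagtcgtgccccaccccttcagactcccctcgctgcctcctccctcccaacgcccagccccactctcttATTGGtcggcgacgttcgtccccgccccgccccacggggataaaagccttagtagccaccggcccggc

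Both genes that passed the test held a pair of CRE half-sites, which begin 236 and 141 bases before the start in Rgs4 and 185 and 67 bases before it in Rgs2. No half-site was found in the windows of Rgs16, Rgs7, Rgs9 or Rgs17. At least 1 half-site is found in 17.8% of the 32851 promoter windows of the RefSeq table. The share of windows with a pair was not computed, so the pairs are given as a description. The half-site letters lie within the full CRE, but no full CRE was found in the 6 windows of these genes (1.55% of all windows). Rgs4 also held a TATA box 31 bases before its start (12.4% of all windows, Rgs9 among them), and Rgs2 an EGR site 176 bases before its start (4.70% of all windows). A CCAAT box was present in Rgs2, Rgs4, Rgs9 and Rgs16 (33.8% of all windows), and an AP-1 match in Rgs17 alone of the 6 (6.75% of all windows). No NBRE and no CArG box was found (1.34% and 1.47% of all windows). In Rgs2, Rgs4 and Rgs16 no marked match overlapped another. GC content was 53.6% in Rgs4, 72.4% in Rgs2 and 66.4% in Rgs16, against a median of 52.4% over all windows. A match is a string of letters and does not show that a factor binds, and a rise and a fall were both seen beside CRE half-sites.

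**Figure D1:**
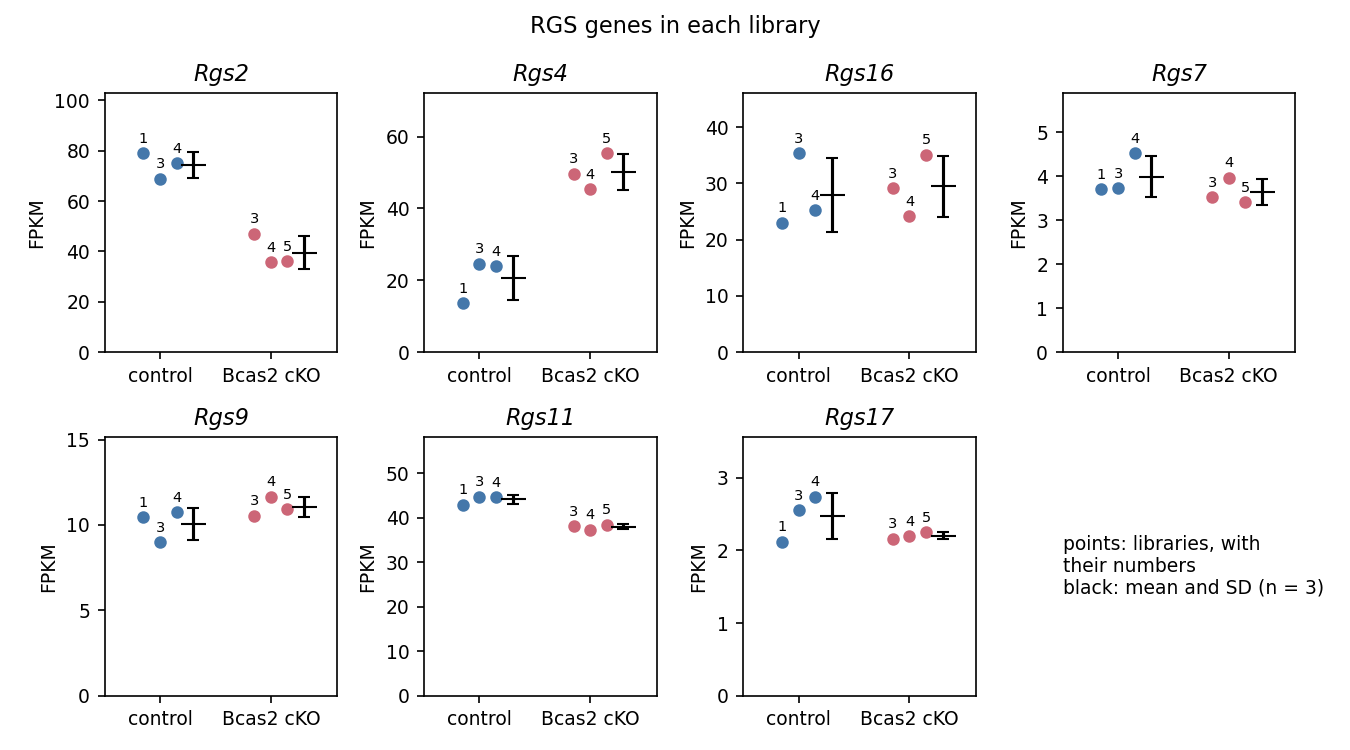
FPKM of each RGS gene (vertical axes, from 0) in the control (blue) and Bcas2 cKO (red) libraries, with library numbers beside the points and the mean and SD in black (n = 3 each). The groups are apart for Rgs2, Rgs4 and Rgs11 and overlap for the other genes.

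Rgs4 is an R4 regulator that acts on Gi and Gq and is known to limit insulin release driven by the muscarinic receptor in beta cells. It lies on chromosome 1 (ENSMUSG00000038530, 169741477 to 169747642, minus strand, GRCm38) and its longest coding transcript has 5 exons. Rgs4 was 13.6, 24.6 and 24.0 FPKM in control libraries 1, 3 and 4, against 49.7, 45.3 and 55.4 FPKM in Bcas2 cKO libraries 3, 4 and 5. Control library 1 was the lowest, and every Bcas2 cKO library lay above every control library. The values rest on 666 to 1091 reads in control, against 2472 to 2960 in Bcas2 cKO. The means were 20.7 ± 6.20 and 50.1 ± 5.04 FPKM (SD, n = 3 each), a log2 fold change of 1.28 (SE 0.22, limma adjusted p 0.014). Of all genes tested, 1.76% had a log2 fold change at least as high. Without Bcas2 cKO library 5, the one with no labelled sample, the log2 fold change was 1.20 with a limma adjusted p of 0.050, just above the threshold, and the call was lost. Each of the other 5 libraries could be left out with the call kept (limma adjusted p 0.0062 to 0.046).

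Rgs2 encodes an R4 protein that prefers Gq and dampens the calcium signal it starts. It lies on chromosome 1 (ENSMUSG00000026360, 143999338 to 144004161, minus strand), also with 5 exons in its longest coding transcript. It was 79.1, 68.9 and 75.2 FPKM in control libraries 1, 3 and 4, against 47.1, 35.7 and 36.0 FPKM in Bcas2 cKO libraries 3, 4 and 5. All 3 Bcas2 cKO values lay below all control values, with library 3 nearest to them. The means were 74.4 ± 5.15 and 39.6 ± 6.47 FPKM (SD, n = 3 each), a log2 fold change of -0.90 (SE 0.13, limma adjusted p 0.0072). Of all genes tested, 1.38% had a log2 fold change as low or lower. Rgs2 kept its call without each library in turn, with a limma adjusted p of 0.0093 to 0.032.

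Rgs16, the third R4 gene, is expressed in endocrine progenitors of the developing pancreas and is known to respond to glucose in beta cells. It lies on chromosome 1 (153740349 to 153745468, plus strand). It was 23.0, 35.4 and 25.3 FPKM in control libraries 1, 3 and 4, against 29.1, 24.2 and 35.1 FPKM in Bcas2 cKO libraries 3, 4 and 5. The groups overlapped over nearly their whole range. The log2 fold change was 0.08 (SE 0.19, limma adjusted p 0.80), with a 95% interval of -0.36 to 0.53. Its sign turned in 4 of 16 alternatives, among them rescaling without the hormone genes. An annotated antisense transcript, Gm28513, overlaps 1917 bases of the locus on the opposite strand. That transcript had 1 to 6 reads per library, and Rgs16 had 855 to 1416. The sources used here do not say whether counting used strand.

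The balance of the R4 genes within a library restates the values above. The ratio of Rgs4 to Rgs2 was 0.171, 0.357 and 0.319 in control libraries 1, 3 and 4 and 1.06, 1.27 and 1.54 in Bcas2 cKO libraries 3, 4 and 5. It was below 1 in every control library and above 1 in every Bcas2 cKO library, and being taken within a library it does not depend on scaling between libraries. Since neither gene's groups overlapped and the genes went in opposite directions, this ratio had to separate the groups, and it is given as a description. The ratio of Rgs4 to Rgs16 was 0.744 ± 0.185 and 1.72 ± 0.148, and that of Rgs2 to Rgs16 was 2.78 ± 0.760 and 1.37 ± 0.307, control first (SD, n = 3 each; exact permutation p = 0.1 for each, the smallest that 3 against 3 libraries allow, and 0.15 adjusted over the 15 sums, shares and ratios computed). Neither ratio overlapped between the groups.

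Rgs11, the most abundant of the R7 genes here, is best known from retinal bipolar cells. It lies on chromosome 17 (ENSMUSG00000024186, 26202951 to 26211324, plus strand). It was 43.0, 44.7 and 44.6 FPKM in control libraries 1, 3 and 4, against 38.1, 37.3 and 38.4 FPKM in Bcas2 cKO libraries 3, 4 and 5. The groups did not overlap and each was narrow, but the log2 fold change of -0.21 (SE 0.07, limma adjusted p 0.086) did not pass the threshold, nor did it under any of the 16 alternatives. Its 95% interval was -0.37 to -0.05. Another annotated gene on the opposite strand, Arhgdig, overlaps 4836 bases of it, so reads there cannot be told apart if strand was not used. Arhgdig had 174 to 304 reads per library, and Rgs11 had 2539 to 2909.

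Rgs9 and Rgs7, the R7 members known from photoreceptors, striatum and brain, did not pass the test. Rgs9 was 10.4, 8.98 and 10.7 FPKM in control, against 10.5, 11.7 and 10.9 FPKM in Bcas2 cKO, in library order. Its groups overlapped, and the log2 fold change was 0.13 (limma adjusted p 0.37, 95% interval -0.08 to 0.34). Rgs7 was 3.71, 3.73 and 4.52 FPKM in control, against 3.53, 3.96 and 3.41 FPKM in Bcas2 cKO. Here too the groups overlapped, with a log2 fold change of -0.10 (limma adjusted p 0.51, 95% interval -0.34 to 0.13). Rgs7 is the longest of the 7 genes, spanning 433 kb with 18 exons in its longest coding transcript, against 4.82 kb for Rgs2.

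Rgs17, an RZ protein that acts on Gi, Go and Gz, was the lowest of the 7. It was 2.12, 2.55 and 2.74 FPKM in control, against 2.16, 2.20 and 2.25 FPKM in Bcas2 cKO, on 279 to 334 reads per library. The Bcas2 cKO values all lay within the control range (log2 fold change -0.11, limma adjusted p 0.50, 95% interval -0.36 to 0.13).

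**Figure D2:**
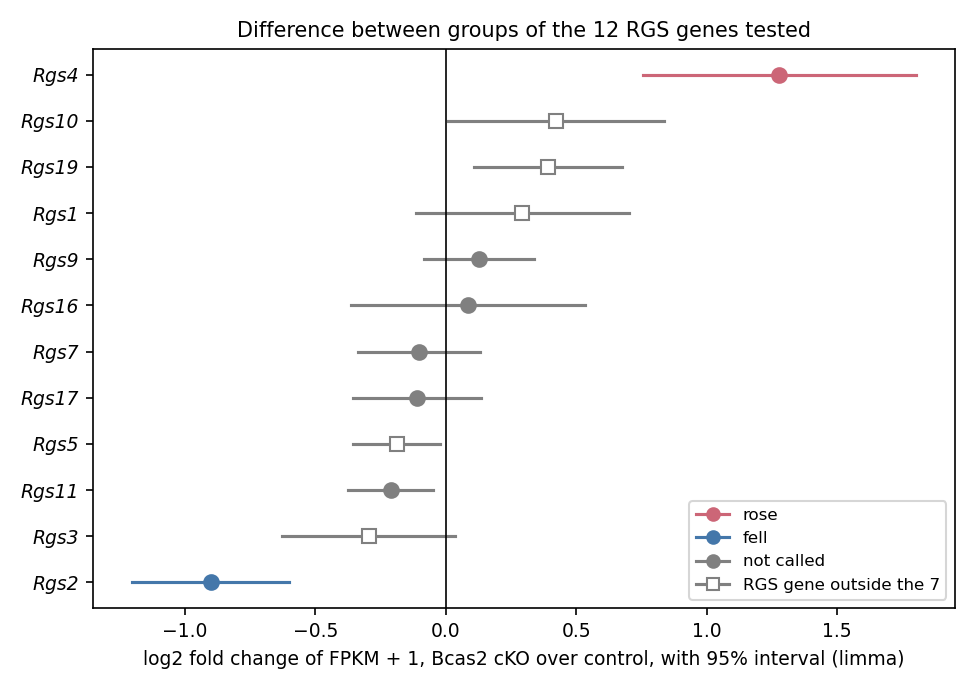
Log2 fold change of FPKM + 1, Bcas2 cKO over control, with the 95% interval of limma (horizontal axis), for the 12 numbered Rgs genes tested, with circles for the 7 genes and open squares for the 5 others. Rgs4 (1.28, red) and Rgs2 (-0.90, blue) lie at the ends and are the 2 that passed the test.

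In control the order of the levels was Rgs2, Rgs11, Rgs16, Rgs4, Rgs9, Rgs7 and Rgs17. Each gene's range lay above that of the next, except that Rgs16 (23.0 to 35.4 FPKM) and Rgs4 (13.6 to 24.6 FPKM) overlapped. In Bcas2 cKO the order was Rgs4, Rgs2, Rgs11, Rgs16, Rgs9, Rgs7 and Rgs17, and the ranges of Rgs4 (45.3 to 55.4 FPKM), Rgs2 (35.7 to 47.1 FPKM) and Rgs11 (37.3 to 38.4 FPKM) overlapped from each to the next.

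The summed level of all 21 Rgs genes was 217 ± 5.26 FPKM in control, against 205 ± 12.8 FPKM in Bcas2 cKO (SD, n = 3 each; 2-sided exact permutation p = 0.3, 0.409 adjusted over the 15 quantities), and the groups overlapped. The 7 genes made up 83.0 to 85.6% of that sum in control, against 84.1 to 85.2% in Bcas2 cKO. Within it the share of Rgs2 was 31.2 to 37.5% in control, against 16.9 to 22.2% in Bcas2 cKO, and the share of Rgs4 was 6.43 to 11.1% and 23.4 to 26.0%. For both genes the shares of the groups did not overlap. The same held for Rgs9 (4.07 to 4.95% in control, 4.96 to 6.11% in Bcas2 cKO) and Rgs11 (20.3 to 20.4% and 18.0 to 19.6%). Each of these shares had an exact permutation p of 0.1, or 0.15 adjusted over the 15 quantities. In FPKM, the groups did not overlap for 38.0% of all genes tested.

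**Figure D3:**
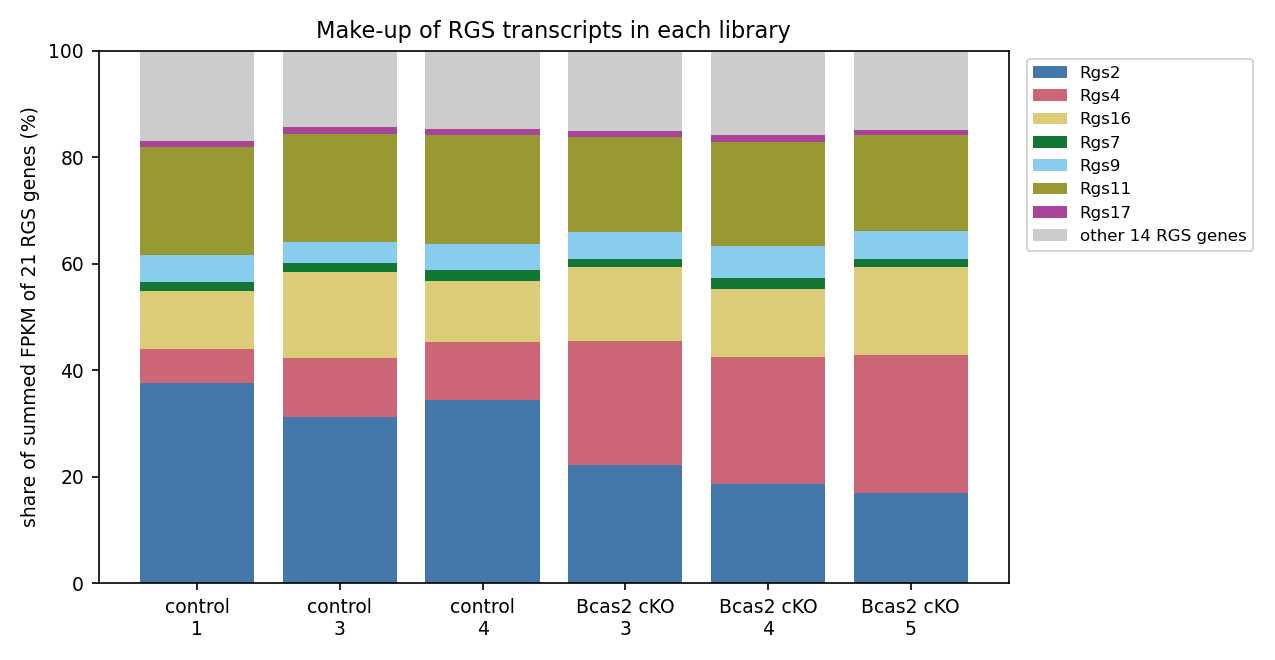
Share of each of the 7 genes (colours) and of the other 14 (grey) in the summed FPKM of 21 Rgs genes (vertical axis, %) in each library (horizontal axis). The Rgs2 band is 31.2 to 37.5% in control, against 16.9 to 22.2% in Bcas2 cKO, and the Rgs4 band 6.43 to 11.1% and 23.4 to 26.0%.

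Of the 14 numbered Rgs genes outside the 7, 5 were tested and none passed the test (limma, 3 at an unadjusted p under 0.05, and 0 also with voom on recovered reads). Rgs5, a marker of pericytes, was 22.8 ± 1.02 (control) and 19.9 ± 0.427 FPKM (Bcas2 cKO) (log2 fold change -0.19, limma adjusted p 0.12). The pooled stellate cell, pericyte and fibroblast markers took 0.0106 to 0.0158% of reads in control, against 0.0169 to 0.0309% in Bcas2 cKO. Of 9 of these markers tested, 1 rose (Notch3). The list does not single out pericytes, and their part in the Rgs5 value was not tested. Rgs3 was 4.39 ± 0.972 and 3.35 ± 0.322 FPKM (-0.30, limma adjusted p 0.20). Rgs19, an RZ gene, was 1.63 ± 0.286 and 2.45 ± 0.221 FPKM (0.39, limma adjusted p 0.072), and it passed only without control library 1 (limma adjusted p 0.049). The median log2 fold change of the 5 was 0.29. The other 9 had a mean under 1 FPKM.

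Of the 21 Rgs genes, 11 lie on chromosome 1, and 4 of these are among the 7. Rgs4 lies 45.7 kb from Rgs5, on the opposite strand. Within each library, the ratio of Rgs4 to Rgs5 was 0.565, 1.10 and 1.09 in control libraries 1, 3 and 4 and 2.52, 2.31 and 2.72 in Bcas2 cKO libraries 3, 4 and 5. The groups of neither neighbour overlapped and Rgs5 was lower in Bcas2 cKO, so this ratio too had to separate them. Rgs16 lies 40.0 kb from Rgs8, which was 0.182 ± 0.0810 FPKM in control, against 0.167 ± 0.0378 FPKM in Bcas2 cKO. Rgs2 lies 134 kb from Rgs13, which had at most 3 reads in any library, and Rgs21, farther along the same cluster, had 0 reads in every library, where 3 reads would be 0.0420 to 0.0564 FPKM.

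Among the partners of R7 proteins, the anchors Rgs7bp and Gpr158 fell, and the stabilizing subunit Gnb5 did not pass the test. Of the 5 partners 4 were tested, of which 2 fell and none rose (median log2 fold change -0.35), against 7.55% of all genes tested that fell. A count over 4 genes is not read as a property of the partners. Rgs7bp, which carries R7 complexes to the membrane, was 2.47, 3.04 and 3.37 FPKM in control libraries 1, 3 and 4, against 0.981, 0.883 and 0.959 FPKM in Bcas2 cKO libraries 3, 4 and 5. All Bcas2 cKO values lay below all control values (log2 fold change -1.02, SE 0.12, limma adjusted p 0.0044), and the call was kept without each library in turn. Its Bcas2 cKO mean of 0.941 FPKM lay under the minimum of 1 FPKM, so it was tested only through its control level. A gene that enters in this way has to differ. The fall of Rgs7bp therefore adds nothing to the count, and its separated groups are given as a description. Gpr158, an orphan receptor that binds RGS7, fell from 15.4 ± 3.92 to 8.39 ± 0.804 FPKM (log2 fold change -0.78, limma adjusted p 0.029). Its call was lost without Bcas2 cKO library 3, 4 or 5 (limma adjusted p 0.068, 0.079 and 0.090). Gnb5 was 6.76, 6.87 and 6.32 FPKM in control libraries 1, 3 and 4, against 8.07, 10.6 and 8.41 FPKM in Bcas2 cKO libraries 3, 4 and 5. Its groups did not overlap (log2 fold change 0.38, limma adjusted p 0.058), and with a minimum mean of 5 FPKM it passed the test. Under quantile normalization and with voom 1 partner also rose. Gpr179 was 1.59 and 1.70 FPKM (0.07, limma adjusted p 0.77).

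Most subunits of the G proteins themselves did not pass the test. Over all genes tested, 6.97% rose and 7.55% fell. Of 11 alpha subunit genes tested, 1 fell and none rose (median 0.02), and 7 had an unadjusted limma p under 0.05. The groups did not overlap for 7 of the 11, against 38.0% of all genes tested. The gene that fell was Gnao1, the alpha subunit of Go and a substrate of R7 proteins. It went from 51.7 ± 3.46 to 38.2 ± 2.48 FPKM (log2 fold change -0.42, limma adjusted p 0.024). Its call was lost without control library 4 or Bcas2 cKO library 3, 4 or 5 (limma adjusted p 0.053 to 0.084). Of 9 beta and gamma subunit genes tested, 1 fell and none rose (median -0.17), and 2 had an unadjusted limma p under 0.05. Gng4 fell from 55.0 ± 4.78 to 38.4 ± 5.72 FPKM (log2 fold change -0.51, limma adjusted p 0.040), a call lost without any 1 of the 6 libraries (limma adjusted p 0.052 to 0.098).

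The receptor kinases, which switch receptors off by phosphorylation, moved in both directions. Of 5 kinase and arrestin genes tested, 1 rose and 1 fell (median -0.26), against 6.97% and 7.55% of all genes tested. An unadjusted limma p under 0.05 was found for 4 of the 5. Grk5 fell from 19.0 ± 3.08 to 8.19 ± 1.20 FPKM (-1.12 on the log2 scale, SE 0.14, limma adjusted p 0.0049), and Grk2, which also binds Gq, rose from 22.4 ± 1.03 to 33.9 ± 1.75 FPKM (0.58, SE 0.08, limma adjusted p 0.0063). Both calls held whichever of the 6 libraries was left out. None of 5 other regulators of G proteins passed the test (limma, 0 also at an unadjusted p under 0.05), with Gpsm1, an activator of G protein signalling, at 20.3 ± 1.94 and 22.4 ± 2.27 FPKM.

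Against 6.97% of all genes tested that rose, 1 of 9 effector genes tested rose and none fell (median -0.09). It was Kcnj5, a subunit of the potassium channels opened by G protein beta and gamma subunits, which rose from 0.198 ± 0.0214 to 1.97 ± 1.08 FPKM (log2 fold change 1.25, limma adjusted p 0.024). Its call was lost without control library 3 or 4 (limma adjusted p 0.064 and 0.074), and 2 of the 6 fits did not test it. Its control level lay under the minimum of 1 FPKM, so that it was tested only through its level in Bcas2 cKO, and a gene that enters in this way has to differ. Of 14 islet receptor genes tested, 4 fell and none rose (median -0.39), against 7.55% of all genes that fell. An unadjusted limma p under 0.05 was found for 8 of the 14. Ffar1, the Gq-coupled fatty acid receptor, fell from 43.9 ± 12.3 to 22.6 ± 1.63 FPKM, Casr, the calcium-sensing receptor, from 16.1 ± 3.62 to 8.49 ± 0.673 FPKM, and Gipr, the receptor of the incretin GIP, from 93.3 ± 5.11 to 57.3 ± 4.37 FPKM. The fourth was Sstr3, a Gi-coupled somatostatin receptor, named after its values were seen, at 75.9 ± 0.239 and 47.0 ± 6.10 FPKM. The calls of Gipr and Sstr3 held whichever of the 6 libraries was left out. Ffar1 lost its call without control library 4 or Bcas2 cKO library 3, 4 or 5, and Casr lost it without control library 4 or Bcas2 cKO library 4 or 5 (limma adjusted p 0.059 to 0.076 over both genes). The count of falls was 2 without control library 4 and without Bcas2 cKO library 4 or 5. The share of reads from beta cell markers was lower in Bcas2 cKO too (14.6 to 16.0% against 20.5 to 28.8%), and its part in these receptor values was not tested.

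**Figure D4:**
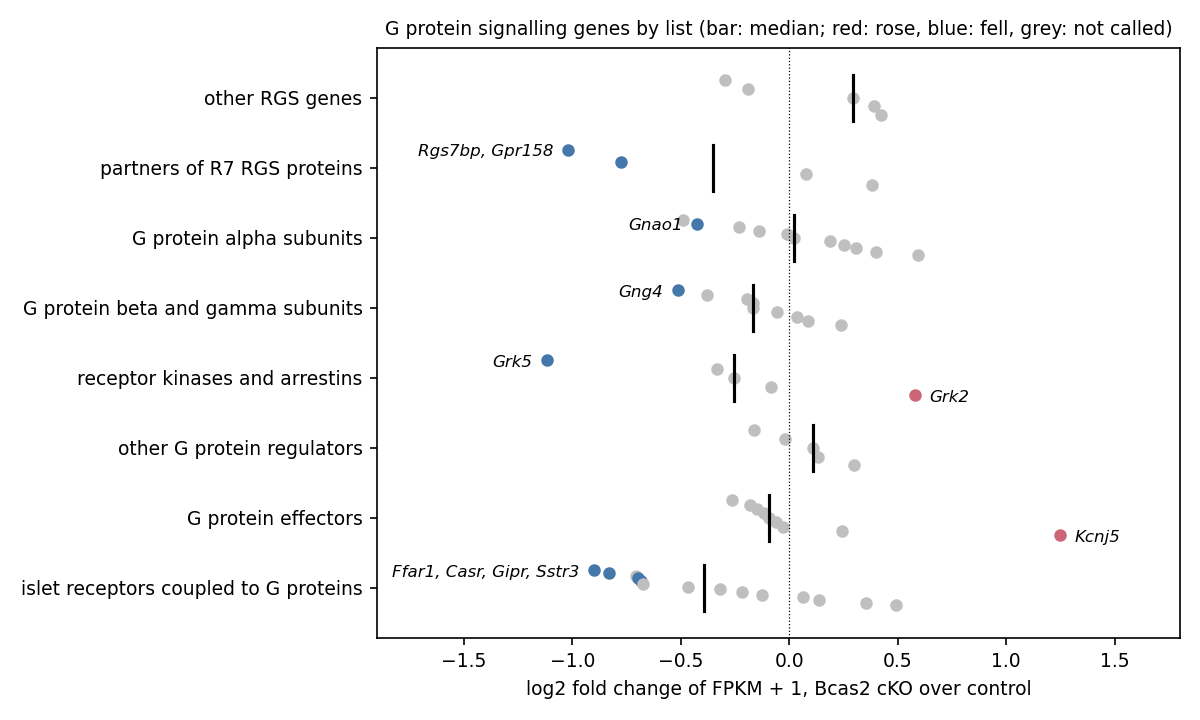
Log2 fold change of FPKM + 1, Bcas2 cKO over control (horizontal axis), of each tested gene in 8 lists of G protein signalling genes (rows), with the list's median as a black bar and called genes named. Rgs7bp, Grk5 and Ffar1 lie at the low end and Kcnj5 at the high end.

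Several R4 genes, Rgs2 among them, are known to be induced quickly by stimuli in other cells, as immediate early genes are, and the immediate early genes rose in Bcas2 cKO. Of 19 tested, 18 rose and none fell (median log2 fold change 2.09), against 6.97% of all genes tested that rose. The count of rises was 11, 10 and 11 without Bcas2 cKO library 3, 4 and 5. Egr2, 1 of the 18, had a control mean of 0.858 FPKM, under the minimum of 1 FPKM. It was tested only through its Bcas2 cKO level (7.19 FPKM), so its rise adds nothing to the count. Arc, a neuronal activity gene, rose from 5.77 ± 3.05 to 95.9 ± 16.3 FPKM, Nr4a1, an orphan nuclear receptor, from 56.2 ± 33.8 to 310.0 ± 61.4 FPKM, and Npas4, an activity-induced transcription factor, from 16.2 ± 12.5 to 81.1 ± 23.5 FPKM. Npas4 lost its call without control library 4 or Bcas2 cKO library 3, 4 or 5 (limma adjusted p 0.058 to 0.093). The 20 genes together took 0.265, 0.637 and 0.650% of reads in control libraries 1, 3 and 4, against 1.85, 2.24 and 2.06% in Bcas2 cKO libraries 3, 4 and 5. Control library 1 was lowest in this share and in Rgs4 and highest in Rgs2. Over the 6 libraries Rgs2 was lower where the share was higher, except between control libraries 3 and 4 (68.9 and 75.2 FPKM). For Rgs4 the order of the share was not kept within either group. The groups were apart in the share and in both genes, so much of this order restates the difference between them. Of the control libraries, 4 was highest in the share, but 3 in Rgs4 (24.6 against 24.0 FPKM). Bcas2 cKO library 4 was highest in the share (2.24%) but lowest in Rgs4 (45.3 FPKM), and it was lowest in Rgs2 (35.7 FPKM). The part of the immediate early genes in the changes of Rgs4 and Rgs2 was not tested.

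Among 7012 candidate genes (a mean of 5 FPKM or more, with predicted, clone-named and mitochondrial genes left out), the nearest profiles over the 6 libraries were sought by the root mean square difference of log2(FPKM + 1), centred on each gene's mean. Nearest to Rgs2 were Tmem132b (0.0476) and Prkcb, a protein kinase C gene (0.0645). Prkcb was 10.1 ± 0.716 FPKM in control, against 5.20 ± 0.572 FPKM in Bcas2 cKO. Nearest to Rgs4 were Snhg8, a snoRNA host transcript (0.145), and Trp53inp1, a p53-induced gene (0.165), at larger differences than those nearest to Rgs2. Snhg8 was 13.4 ± 2.75 FPKM in control, against 29.3 ± 2.31 FPKM in Bcas2 cKO. These profiles are dominated by the difference between the groups and are given as a description.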

How the data were processed

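Transcripts were measured by RNA-seq in 6 mouse islet libraries, 3 control and 3 Bcas2 cKO. The authors deposited FPKM per gene, 1 column per library, with gene lengths and coordinates, per the file headers. RNA was extracted with Trizol and libraries made with a SMARTer kit, per the labels' protocols, and the build was GRCm38 (mm10), per the submitters' processing notes. Which aligner, counter and strand setting were used is not stated there. For all 7 genes the table's length equals the union of exons in GENCODE M21. Reads per gene were recovered from FPKM times length, and 100% of values above 0 came out whole (within 0.01 of a read). The depth in the FPKM was 0.890 to 1.017 times the recovered total in control and 1.020 to 1.109 times in Bcas2 cKO. The FPKM were therefore not scaled to the recovered total alone, and voom used the same depth. What this scaling adds to small differences between the groups, such as that of Rgs11, was not tested.

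Limma 3.58.1 was fitted to log2(FPKM + 1) of genes whose mean reached 1 FPKM (eBayes with trend, Benjamini-Hochberg adjustment over all genes, threshold 0.05) under R 4.3.3, so fold changes of low genes are understated. The fit was tested on simulated data. The members and lists were chosen with earlier results of these data known. Named genes were the 7, the 3 most abundant other Rgs genes, up to 3 called genes per list by size of change (or the most abundant), and the 2 nearest profiles per called member. Promoter windows came from RefSeq (GRCm38.p6) and covered 6 of the 7 genes, all but Rgs11. Alternatives were a pseudocount of 0.1, other filters, scalings and eBayes options, voom, each library left out, and a block on shared numbers. Exact tests used scipy 1.17.1, tables pandas 2.3.3 and numpy 2.4.6, and figures matplotlib 3.10.9, all under Python 3.11.15.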

Additional observations from a re-analysis of the deposited data

How the results depend on the processing

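Rgs2 and Rgs4 kept their direction under all 16 alternatives, with log2 fold changes of -1.03 to -0.80 for Rgs2 and 0.94 to 1.42 for Rgs4, and each lost its call under 1 of them. Leaving out a library in turn gave 0 to 1 members risen, with 0 without Bcas2 cKO library 5, and 1 fallen in each of the 6 fits. Over all genes those fits gave 466 to 956 rises and 391 to 994 falls, and over the lists of other RGS and G protein genes 1 to 3 rises and 4 to 10 falls. With no filter beyond a mean above 0, 628 genes rose and 516 fell, and 1 and 5 over the lists, and 11 immediate early genes rose and 2 receptor genes fell. Rescaling without the hormone genes gave 608 rises and 1249 falls, 32.7% against 48.0% rises among calls, and moved the median of all genes from -0.03 to -0.12, with Rgs2 at -1.02 and Rgs4 at 1.16. With a minimum mean of 5 FPKM, 1 R7 partner and 1 alpha subunit gene rose, and voom gave the same counts. Voom on recovered reads gave 4 rises and 14 falls over the lists, 7 of them receptor genes. The fold change of Rgs16 turned to -0.029 when rescaled without the hormone genes, -0.17 under the block, -0.036 without control library 1 and -0.045 without Bcas2 cKO library 5, within a range of -0.045 to 0.26 over the libraries left out, and the cause was not tested. Gpr158, Gng4, Kcnj5, Ffar1, Casr and Npas4 also lost their calls with no filter, where more genes were tested (limma adjusted p 0.056 to 0.092), and Gnao1 and Gng4 under quantile normalization (limma adjusted p 0.072 and 0.051).

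The numbers 3 and 4 occur in both groups, but nothing in the labels says that they pair the libraries, and same-numbered libraries did not deviate together (correlation of deviations over genes -0.15 for number 3 and 0.05 for number 4). With the replicate block, in which control library 1 and Bcas2 cKO library 5 carry no information on the difference, 352 genes rose and 186 fell, 0 and 2 over the lists (0 of the receptor genes), and 1 member rose (Rgs4, limma adjusted p 0.037) and 0 fell (Rgs2, log2 fold change -0.80, limma adjusted p 0.087).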

Other observations

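Rgs14, whose protein also holds a domain that binds inactive Gi alpha subunits, was below the level tested but separated the groups. It had 6, 6 and 4 reads in control libraries 1, 3 and 4 and 21, 15 and 15 reads in Bcas2 cKO libraries 3, 4 and 5, or 0.0861 ± 0.0205 and 0.226 ± 0.0404 FPKM (SD, n = 3 each). Groups that did not overlap were found for 38.0% of all genes tested, so the separation of Rgs14 is given as a description. Rgs12, which is built alike, had 71 to 142 reads in control, against 116 to 128 in Bcas2 cKO, and its groups overlapped. Rgs1, a gene of lymphocytes and other immune cells, had 159 to 188 reads in control and 414, 249 and 215 reads in Bcas2 cKO libraries 3, 4 and 5. With depth taken into account its groups overlapped, at 1.56 to 1.86 FPKM in control against 3.28, 2.04 and 1.79 FPKM (limma adjusted p 0.29). The immune marker share of reads was higher in Bcas2 cKO, and its part in these values was not tested.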
